A study of Populus ussuriensis with 20 samples.

Results

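The secondary wall cellulose synthases of poplar are a set of 5 genes, CesA4 (Potri.002G257900), CesA7-A (Potri.006G181900), CesA7-B (Potri.018G103900), CesA8-A (Potri.011G069600) and CesA8-B (Potri.004G059600). They were chosen by identifier from 34699 genes in the deposited table, with earlier results of these data known, and all 5 are present in it. The table holds identifiers only, so these names follow the usual poplar naming of the identifiers and were not checked against an annotation here. All 5 passed the filter on low values described below, which left 24934 genes for testing.

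Cellulose synthases sit in large complexes in the plasma membrane and spin glucose units into the chains of a cellulose microfibril. In Arabidopsis, 1 set of these proteins serves the thin primary wall of growing cells, and another, CESA4, CESA7 and CESA8, serves the thick secondary wall of xylem vessels and fibres. The Arabidopsis subunits are not interchangeable, and loss of any 1 of them leaves weak xylem vessels that collapse. Poplar carries A and B copies of CesA7 and of CesA8 that stem from a genome duplication in the lineage of poplars and willows. Transcripts of the whole set are abundant in developing wood.

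The samples were basal ends of Populus ussuriensis stem cuttings, an Ussuri poplar that roots from cuttings. Cuttings came from plants 3 weeks old, formed root primordia during 5 days on a solid medium, and then went into a liquid medium. The liquid medium held 10 µM KH2PO4 (low phosphate) or 200 µM KH2PO4, and tissue was taken 2, 4, 8, 12 and 24 h later, which gives 10 groups of 2 libraries each. The piece that was cut out held the primordia together with the stem tissue around them, and all groups shared the same medium apart from the phosphate level, as far as the labels say. No genotype difference is named. The labels number the libraries of a group as 1 and 2 but leave it unsaid if these were separate cuttings or cultures, so p-values measure only the spread between these libraries, which may be technical. The series title ties low phosphorus to the formation of roots on stems, and the comparisons ask whether these transcripts differ with phosphate and along the time course.

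Expression was given as FPKM, fragments scaled to gene length and library size, a unit in which levels of different genes can be set side by side. Library totals lay between 14053677 and 15764764 fragments, a 1.12-fold range. The 5 genes were covered by between 127 fragments (CesA7-A in replicate 2 at 10 µM and 12 h) and 1398 fragments (CesA4 in replicate 1 at 10 µM and 2 h) per library. The summed FPKM of the 5 genes showed no relation to the library total that could be told from 0 (Pearson r = 0.014, permutation p = 0.951; Spearman rho = 0.065, permutation p = 0.789; n = 20; r = -0.025 without the 2 libraries farthest from the median total). Since no gene of the table is annotated, xylem or primordium marker genes could not be checked. In such bulk samples, fewer xylem cells and less RNA per xylem cell cannot be told apart.

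All 5 genes were expressed in every library, at moderate levels, and their order was nearly the same throughout. CesA4 had the highest level, with 14.5 ± 4.7 FPKM (SD, n = 20 libraries), more than 65.5% of the genes tested. CesA7-B followed with 9.82 ± 3.28 FPKM, then CesA8-B with 7.19 ± 2.37 FPKM, CesA8-A with 5.98 ± 1.67 FPKM and CesA7-A with 4.56 ± 1.75 FPKM, the last above 31.2% of the genes tested. Within libraries, CesA4 exceeded CesA7-B in 20 of 20 libraries (1.27 to 1.82 times), CesA7-B exceeded CesA8-B in 20 (1.09 to 1.89 times), and CesA8-A exceeded CesA7-A in 20 (1.06 to 1.78 times). CesA8-B was above CesA8-A in 17 of 20 libraries, the only pair of neighbours whose order changed.

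The A and B copies differed in level. CesA7-B stood at 2.19 times CesA7-A on the geometric mean of the 20 libraries, with a range of 1.72 to 2.75 times. CesA8-B stood at 1.19 times CesA8-A, with a range of 0.939 to 1.56 times. The mean log2 ratio of A over B, taken on FPKM + 1, was -0.97 ± 0.13 (SD, n = 20) for CesA7 and -0.21 ± 0.17 for CesA8. Both ratios differed from 0 in a two-sided permutation test that flipped signs over libraries (100000 resamples, Benjamini-Hochberg adjusted p over the 2 tests = 8e-05 for each). How reads shared by the near-identical copies were assigned is not given in the sources used here, so the split between A and B is uncertain in proportion to that sharing.

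Added by class, the 3 kinds of subunit transcript were close to each other. CesA4 made up 34.5 ± 2.3% of the summed FPKM (SD, n = 20), both CesA7 copies together 34.0 ± 1.7%, and both CesA8 copies together 31.5 ± 2.2%. The sum itself ran from 28.1 FPKM to 73.6 FPKM, a 2.62-fold range, while the share of CesA4 stayed between 30.01 and 39.6%, that of CesA7 between 30.3 and 38.1%, and that of CesA8 between 28.3 and 35.6%. The total thus varied far more between libraries than the make-up did.

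CesA4 is, in Arabidopsis, the subunit whose loss gives the irregular xylem mutant irx5. At 10 µM, replicates 1 and 2 measured 25.3 and 10.5 FPKM at 2 h, 18.6 and 14.5 at 4 h, 16.4 and 10.7 at 8 h, 17.2 and 11.1 at 12 h, and 10.9 and 11.8 at 24 h. At 200 µM they measured 24.2 and 10.7 FPKM at 2 h, 13.6 and 19.7 at 4 h, 9.98 and 12.2 at 8 h, 11.0 and 10.2 at 12 h, and 17.9 and 13.5 at 24 h. The highest values were replicate 1 at 2 h at both phosphate levels. The 10 µM libraries lay above the 200 µM libraries at 12 h and below them at 24 h, and the groups overlapped at 2, 4 and 8 h. Group means ran from 17.9 ± 10.5 FPKM at 10 µM and 2 h to 10.6 ± 0.58 FPKM at 200 µM and 12 h (SD, n = 2 each), and for all 9 pairs of neighbours in that order the libraries overlapped. Neighbours in an order of means lie close together by construction. Such overlaps were not counted for other genes, so here and for the members below they only describe the order.

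CesA7 corresponds to the Arabidopsis subunit lost in irx3. The A copy measured 8.28 and 3.68 FPKM in replicates 1 and 2 at 10 µM and 2 h, 6.04 and 4.51 at 4 h, 4.36 and 2.73 at 8 h, 5.29 and 2.40 at 12 h, and 4.12 and 4.59 at 24 h. Its 200 µM libraries held 8.93 and 3.05 FPKM at 2 h, 3.56 and 6.13 at 4 h, 2.74 and 3.40 at 8 h, 3.75 and 3.27 at 12 h, and 5.24 and 5.10 at 24 h. The groups overlapped at every time except 24 h, where both 10 µM libraries were below both 200 µM libraries. The B copy measured 17.8 and 8.31 FPKM at 10 µM and 2 h, 12.3 and 10.2 at 4 h, 9.97 and 7.50 at 8 h, 11.0 and 6.11 at 12 h, and 8.24 and 8.95 at 24 h. In 200 µM libraries it had 17.3 and 7.80 FPKM at 2 h, 8.93 and 12.7 at 4 h, 6.45 and 7.46 at 8 h, 6.97 and 7.26 at 12 h, and 12.3 and 8.76 at 24 h. Its groups overlapped at 4 of the 5 times, the exception being 8 h, where both 10 µM libraries were above. For each copy the libraries overlapped in all 9 pairs of neighbouring groups, with the highest group mean 1.95 times the lowest for CesA7-A and 1.88 times for CesA7-B.

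CesA8 corresponds to the Arabidopsis subunit lost in irx1. The A copy measured 9.61 and 4.58 FPKM in replicates 1 and 2 at 10 µM and 2 h, 8.00 and 6.10 at 4 h, 5.43 and 4.87 at 8 h, 7.33 and 3.85 at 12 h, and 4.87 and 6.35 at 24 h. At 200 µM it had 9.45 and 4.39 FPKM at 2 h, 5.40 and 7.36 at 4 h, 4.73 and 5.24 at 8 h, 4.73 and 4.40 at 12 h, and 7.20 and 5.71 at 24 h. The phosphate groups of CesA8-A overlapped at all 5 times. CesA8-B measured 12.6 and 4.39 FPKM at 10 µM and 2 h, 7.68 and 6.615 at 4 h, 6.66 and 5.36 at 8 h, 8.74 and 4.61 at 12 h, and 7.59 and 7.65 at 24 h. The 200 µM libraries gave 12.3 and 5.10 FPKM at 2 h, 5.89 and 8.14 at 4 h, 5.42 and 4.92 at 8 h, 5.97 and 5.74 at 12 h, and 10.5 and 7.92 at 24 h. Groups of CesA8-B overlapped except at 24 h, where both 10 µM libraries were below both 200 µM libraries. In either copy, 8 of 9 neighbouring groups in the order of level overlapped, a count that was not made for other genes. The exception was the 200 µM pair of 8 h and 12 h, with 8 h higher for CesA8-A and lower for CesA8-B. CesA8-B was the only member whose highest group mean lay at 24 h (9.21 ± 1.82 FPKM at 200 µM), though at 2 h it stood at 8.69 ± 5.08 FPKM at 200 µM (SD, n = 2 each).

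**Figure D1:**
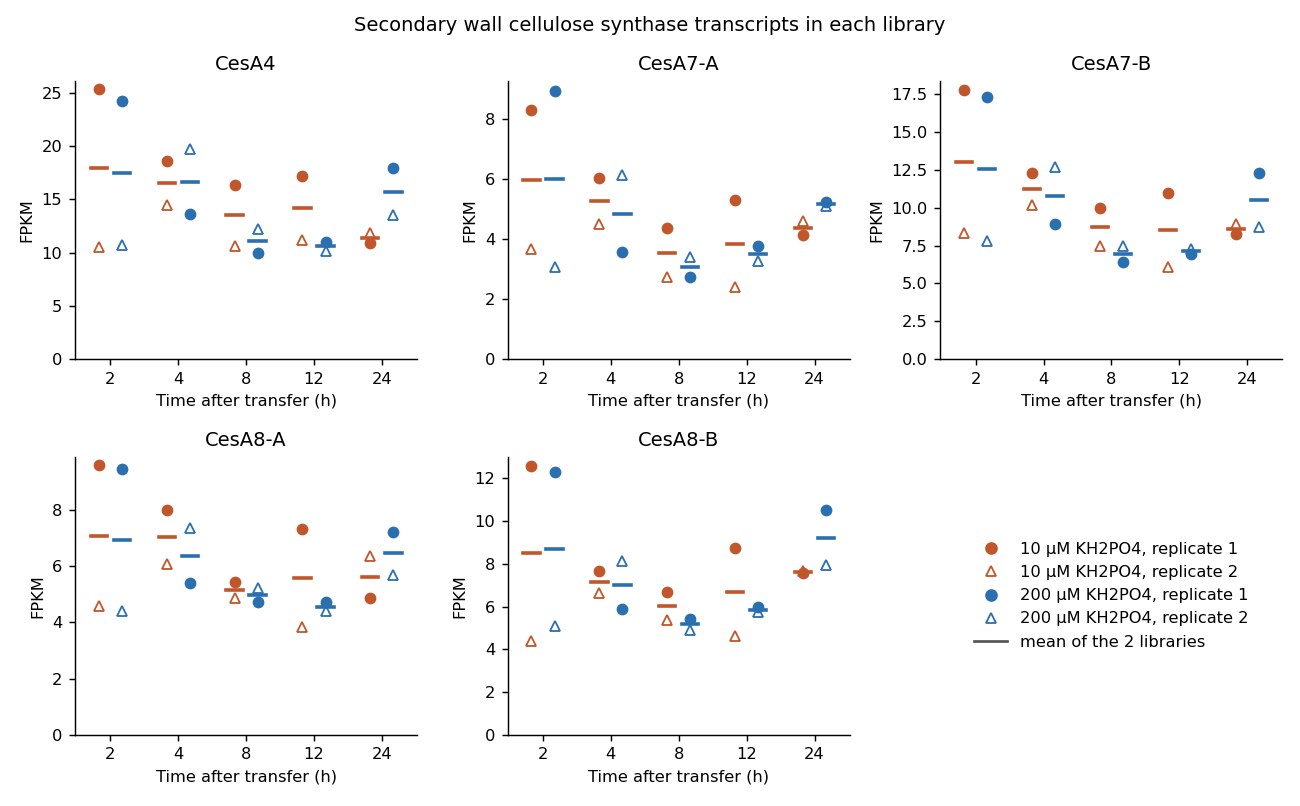
FPKM of each gene (vertical axis) in every library by hours after transfer (horizontal axis), with 10 µM KH2PO4 in orange left of 200 µM in blue, filled circles for replicate 1, open triangles for replicate 2 and a bar for the mean of 2 libraries. Replicate 1 lies far above replicate 2 at 2 h at both phosphate levels, for example at 25.3 against 10.5 FPKM for CesA4 at 10 µM.

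None of the 5 genes differed detectably between 10 and 200 µM KH2PO4. Averaged over the 5 times, CesA4 averaged 14.7 ± 4.8 FPKM in the 10 µM libraries and 14.3 ± 4.8 FPKM in the 200 µM libraries (SD, n = 10 libraries each), a log2 difference of 0.04 ± 0.17 (SE). The 95% confidence interval of this difference ran from 0.798-fold to 1.32-fold on the FPKM + 1 scale. CesA7-A had 4.60 ± 1.68 FPKM at 10 µM and 4.52 ± 1.90 FPKM at 200 µM (0.781-fold to 1.34-fold), and CesA7-B had 10.0 ± 3.3 FPKM at 10 µM and 9.60 ± 3.46 FPKM at 200 µM (0.828-fold to 1.33-fold). CesA8-A had 6.10 ± 1.77 FPKM at 10 µM and 5.86 ± 1.65 FPKM at 200 µM (0.828-fold to 1.28-fold), and CesA8-B 7.19 ± 2.37 FPKM at 10 µM and 7.19 ± 2.50 FPKM at 200 µM (0.773-fold to 1.30-fold).

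The intervals come from limma fitted to log2(FPKM + 1) of all tested genes, and differences within them were not detectable with these libraries. The median log2 difference of the 5 genes was 0.04, against 0.00 for all genes tested. Benjamini-Hochberg adjusted p over all genes lay between 0.95 and 0.998, so 0 of the 5 passed the threshold of 0.05, where 0.0441% of the 24934 genes tested did. At an unadjusted p under 0.05, limma gave 0 of 5, against 7.13% of all genes.

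At single times the differences were wider and had no common sign. All 5 genes had a log2 difference above 0 at 4, 8 and 12 h, the largest being 0.36 ± 0.38 (SE) for CesA4 at 12 h, and all 5 had one below 0 at 24 h, from -0.43 ± 0.38 for CesA4 to -0.18 ± 0.33 for CesA8-A. At 2 h, 4 of the 5 were above 0 and none was farther from it than CesA8-B (-0.07 ± 0.39). As the 5 genes vary together from library to library, as described below, their shared signs at a time are not independent of each other. In limma no member passed at 2, 4, 8, 12 or 24 h, at Benjamini-Hochberg adjusted p of 0.899 or higher, and 0% of all genes tested did at each of these times. The members at an unadjusted p under 0.05 were also 0 at each time, against 1.97, 3.59, 5.96, 4.54 and 5.1% of all genes at 2, 4, 8, 12 and 24 h.

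In 5 of the 25 combinations of gene and time the phosphate groups did not overlap. They were CesA7-B at 8 h and CesA4 at 12 h, with 10 µM higher, and CesA4, CesA7-A and CesA8-B at 24 h, with 10 µM lower. Groups of 2 were apart in 27.1% of all genes tested at 8 h, in 37.9% at 12 h and in 43.5% at 24 h, and in 19.5% at 2 h and 34.5% at 4 h, where no member's groups were. No change of the phosphate difference along the time course was detectable either. The range of that difference over the 5 times was widest for CesA4 (0.79 on the log2 scale) and narrowest for CesA7-A (0.35), with a median of 0.41 over the 5 genes and 0.35 over all genes. In limma's F test 0 of 5 members passed (Benjamini-Hochberg adjusted p = 1.00 for each, unadjusted p of 0.648 or higher), as did 0% of all genes, with 3.01% of all genes at an unadjusted p under 0.05.

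**Figure D2:**
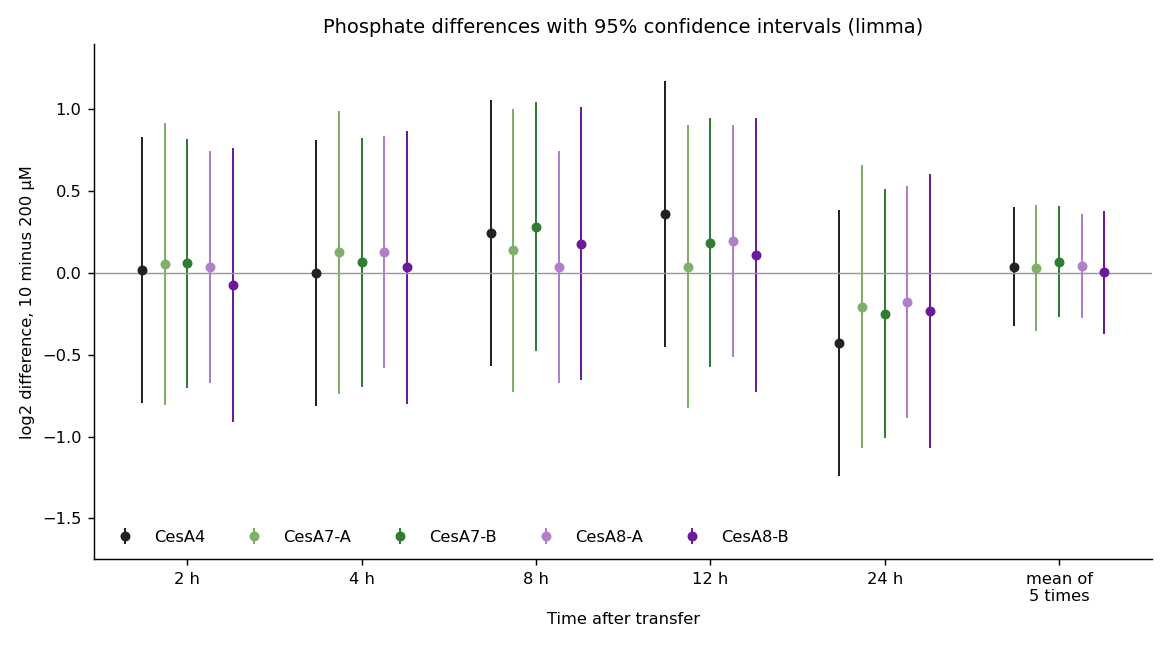
Log2 difference of 10 minus 200 µM KH2PO4 for each gene (vertical axis, limma on log2(FPKM + 1)) at each time and as the mean of 5 times (horizontal axis), with 95% confidence intervals. Every interval spans 0, and those of the mean are the narrowest, from -0.37 at the lowest to 0.42 at the highest.

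Along the time course no difference between times passed the test in any of the 5 genes. CesA4 averaged 17.7 ± 8.2, 16.6 ± 3.0, 12.3 ± 2.9, 12.4 ± 3.2 and 13.5 ± 3.1 FPKM at 2, 4, 8, 12 and 24 h (SD, n = 4 libraries, both phosphate levels). CesA7-B averaged 12.8 ± 5.5, 11.0 ± 1.8, 7.84 ± 1.50, 7.83 ± 2.16 and 9.57 ± 1.85 FPKM in the same order of times. CesA8-B averaged 8.59 ± 4.46, 7.08 ± 1.02, 5.59 ± 0.75, 6.26 ± 1.75 and 8.42 ± 1.40 FPKM. Mean levels were thus lowest at 8 or 12 h in each of these 3 genes, and so they were in CesA7-A (3.31 ± 0.77 FPKM at 8 h) and CesA8-A (5.07 ± 0.32 FPKM at 8 h). The libraries at 2 h were spread widely: none of the 16 later libraries lay above their range in any member, while 2 lay below it for CesA4, 3 for CesA7-A, 6 for CesA7-B, 1 for CesA8-A and 0 for CesA8-B.

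The range of the 5 time means was 0.41 for CesA4, 0.60 for CesA7-A, 0.58 for CesA7-B, 0.36 for CesA8-A and 0.51 for CesA8-B on the log2 scale, with a median of 0.51 against 0.29 over all genes. In limma's F test over the 5 times, 0 of 5 members passed at Benjamini-Hochberg adjusted p from 0.271 (CesA7-B) to 0.540 (CesA8-A), whereas 14.6% of all genes tested passed. The members at an unadjusted p under 0.05 numbered 0 of 5, against 32.1% of all genes. From 4 h to 12 h, an interval in which 7.18% of all genes passed, the log2 difference (12 minus 4 h) lay between -0.46 ± 0.25 for CesA7-B and -0.17 ± 0.28 for CesA8-B. Its adjusted p in limma was 0.291 or higher, and no member had an unadjusted p under 0.05, against 23.1% of all genes. Between 2 and 24 h, where 12.3% of all genes passed, the log2 difference (24 minus 2 h) lay between -0.31 ± 0.25 for CesA7-B and 0.09 ± 0.28 for CesA8-B, at adjusted p of 0.463 or higher in limma. The sign of this difference depended on single libraries: leaving out 1 of them moved it between -0.24 and 0.42 for CesA8-B, and turned it in CesA4, CesA7-A and CesA8-A too, but not in CesA7-B. Without both replicate 1 libraries at 2 h, an alternative chosen after the values had been seen, it was positive in all 5 genes. It was largest for CesA8-B (0.70 ± 0.20), against a median of 0.05 over all genes. That fit kept only 1 library per group at 2 h, so no call is drawn from it. No member passed for 4 minus 2 h, 8 minus 4 h, 12 minus 8 h or 24 minus 12 h, where 0.0481, 0.241, 0.108 and 1.47% of all genes did. Their smallest adjusted p in limma over these 4 steps was 0.472, for CesA7-B from 4 to 8 h, a step in which no member and 13.3% of all genes had an unadjusted p under 0.05.

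Levels differed widely between libraries of the same group. The spread between replicate libraries, as the residual SD of log2(FPKM + 1) in limma, was 0.38 for CesA8-A, 0.41 for CesA7-B, 0.44 for CesA4, 0.45 for CesA8-B and 0.47 for CesA7-A. The median over all genes tested was 0.17, and the 5 members lay above 93.4 to 96.9% of those genes. The 10 groups of phosphate and time took up 28.4% (CesA8-A and CesA8-B) to 43.0% (CesA7-B) of the variation between the 20 libraries, against a median of 57.4% over all genes tested. Members were thus less well described by their group than the typical gene of the same libraries. With only 2 libraries per group, group means take up a sizeable share of the variation even where no group differs. These shares therefore do not measure an effect of phosphate or time.

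The widest gap was between the replicates at 2 h, and it was alike at both phosphate levels. At 10 µM, replicate 1 exceeded replicate 2 by between 2.099 times (CesA8-A, 95% interval 1.82 to 2.43) and 2.87 times (CesA8-B, 2.47 to 3.34). At 200 µM the corresponding ratios lay between 2.15 times (CesA8-A, 1.86 to 2.49) and 2.93 times (CesA7-A, 2.44 to 3.52). The intervals are exact binomial ones on the fragments of the 2 libraries, compare those libraries only, and cover counting error only. A gap of more than 1 on the log2(FPKM + 1) scale at both levels was seen for 3 of the 5 members and for 156 genes in all (0.626%), and the smallest gaps of a member were 0.93 at 10 µM and 0.95 at 200 µM. The cause of this gap was not tested. Library totals, to which FPKM is already scaled, were 14728784 and 14380324 fragments for replicates 1 and 2 at 10 µM, and 14703457 and 15095358 at 200 µM.

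Members moved the same way between replicates in most other groups too. In 8 of the 10 groups all 5 were higher in the same replicate, in 6 of them in replicate 1 and in 2 of them in replicate 2 (10 µM at 24 h and 200 µM at 4 h). Replicate 1 exceeded replicate 2 by 1.54 to 2.201 times at 10 µM and 12 h, by 1.16 to 1.34 times at 10 µM and 4 h, and by 1.11 to 1.60 times at 10 µM and 8 h. Replicate 2 exceeded replicate 1 by 1.36 to 1.72 times at 200 µM and 4 h. The exceptions were 200 µM at 8 h, with 1 of 5 members higher in replicate 1, and 200 µM at 12 h, with 4 of 5. Of the 50 ratios between replicates, 35 had a counting interval that left out 1. These intervals cover counting error only. Neither this count nor that of groups moving one way was made for other genes, so neither sets the members apart. As the 5 genes vary together, their shared directions are not independent of each other.

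**Figure D3:**
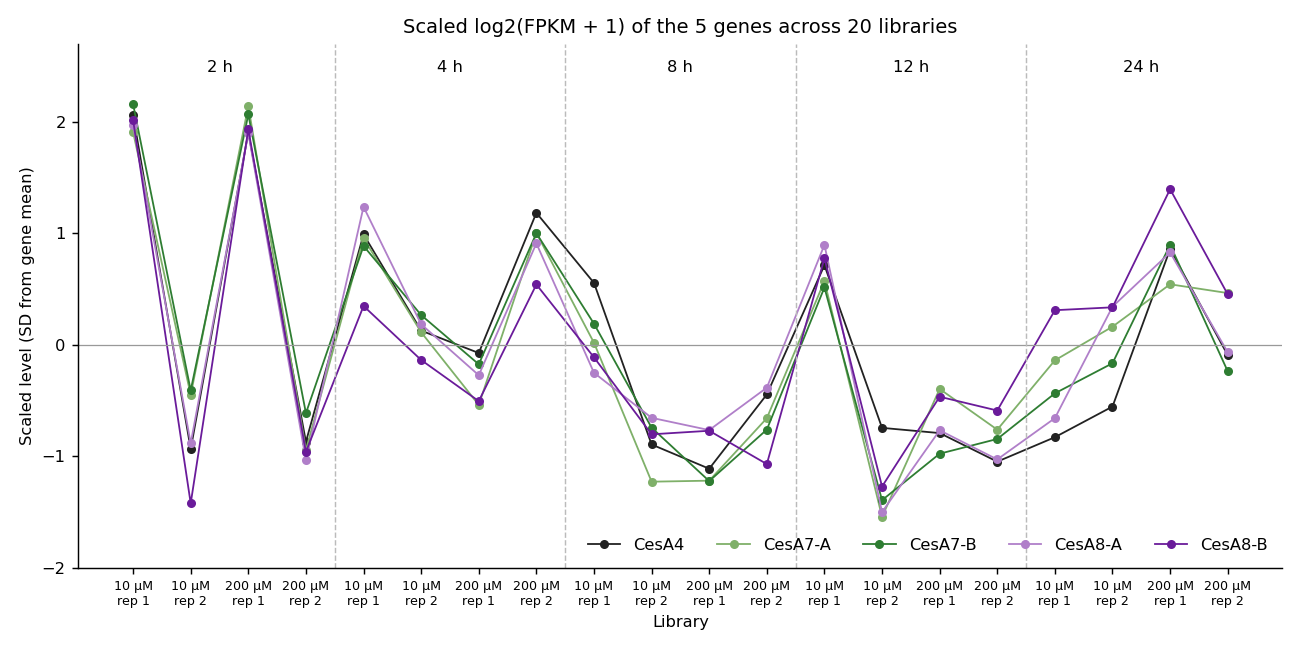
Level of each gene as its distance from its own mean in SDs of log2(FPKM + 1) (vertical axis) in the 20 libraries ordered by time, phosphate level and replicate (horizontal axis). The 5 lines run together, with peaks near 2 SD in both replicate 1 libraries at 2 h and a low at 10 µM, 12 h, replicate 2.

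Across the 20 libraries the 5 transcripts were closely correlated. Pearson's r of log2(FPKM + 1) over the 10 pairs of genes ran from 0.853 (CesA4 and CesA8-B) to 0.958 (CesA4 and CesA7-B), with a median of 0.923. Spearman's rho ran from 0.798 to 0.913 with a median of 0.884. Each pair passed a two-sided permutation test (100000 resamples), with Benjamini-Hochberg adjusted p over the 10 pairs from 1.25e-05 to 3e-05 for r and from 1.43e-05 to 0.0001 for rho. The lowest unadjusted p, 1e-05, was the smallest the permutations can give. The permutations treat the libraries as independent, although those of 1 group or time share conditions.

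The relation was weaker but remained without its extreme libraries, and it was also seen within each phosphate level with those libraries included. Leaving out the 2 libraries farthest from the median of the first gene, which were replicate 1 at 2 h at both levels for every pair, r ran from 0.729 (CesA4 and CesA8-B) to 0.922 (CesA4 and CesA7-B). Within the 10 libraries at 10 µM, r lay between 0.810 and 0.969, and within the 10 at 200 µM between 0.897 and 0.987. After the mean of each group was subtracted, so that only differences between replicates were left, r lay between 0.933 (CesA7-A and CesA8-B) and 0.982 (CesA4 and CesA7-B). The 2 deviations of a group mirror each other, so these values rest on 10 differences, the widest of them at 2 h. They were not computed without the libraries at 2 h. The transcripts thus moved together between libraries of the same phosphate level and time.

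**Figure D4:**
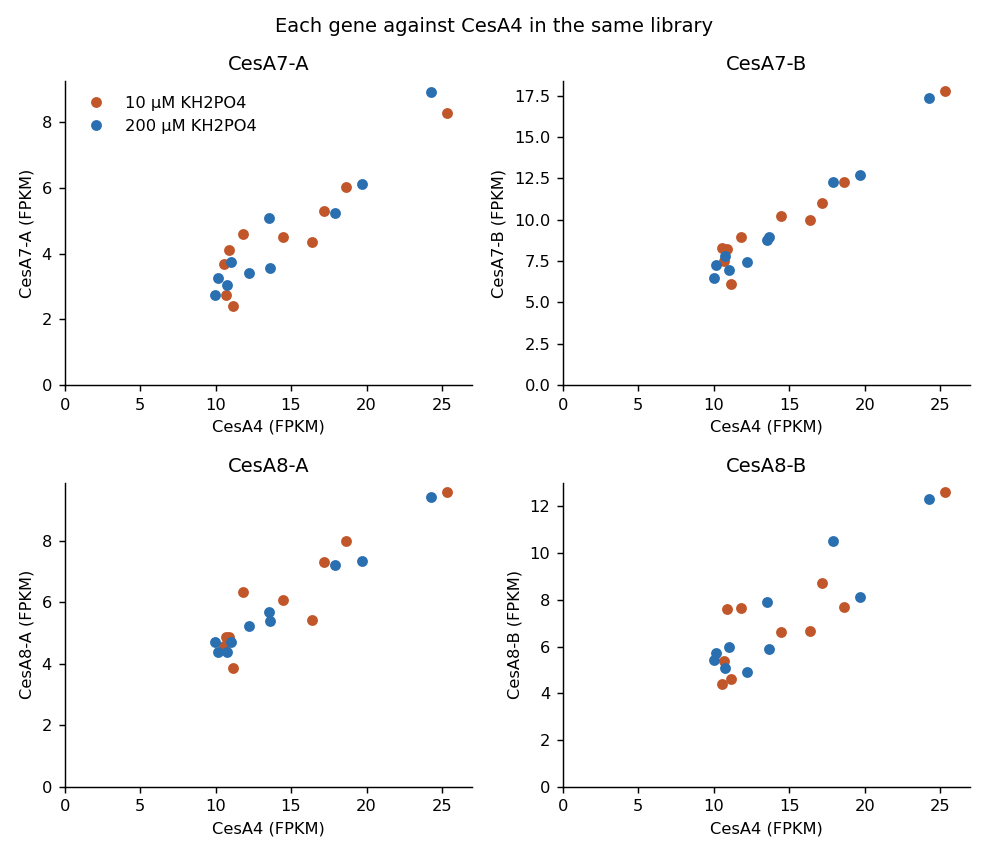
FPKM of CesA7-A, CesA7-B, CesA8-A and CesA8-B (vertical axes) against CesA4 (horizontal axes) in each of 20 libraries, at 10 µM KH2PO4 in orange and 200 µM in blue. All 4 rise with CesA4 at both phosphate levels, CesA7-B most tightly (r = 0.958 on the log2 scale) and CesA8-B least (r = 0.853).

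Members were also among each other's nearest neighbours in the whole table. Of 24933 other tested genes ranked by r with CesA4, CesA7-B came first, CesA8-A 5th, CesA7-A 16th and CesA8-B 86th. CesA7-B was likewise the gene most like CesA7-A and most like CesA8-A, and CesA4 was the gene most like CesA7-B. Set against the mean of the other 4 members, CesA7-A, CesA7-B and CesA8-A each ranked first of 24930 genes (r = 0.962, 0.971 and 0.966), CesA4 ranked 5th (r = 0.941) and CesA8-B 20th (r = 0.908). CesA8-B was thus the member least like the others, and its nearest member, CesA7-A, ranked 11th in its own list. These ranks describe the 20 libraries, which all points share, and carry no test.

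Outside the set, 24 of 24929 tested genes (0.0963%) reached r of at least 0.9 with the mean scaled level of the 5 members, and 5 genes (0.0201%) reached -0.9 or lower. The 2 most alike were Potri.010G141600 (r = 0.954 over 20 libraries) and Potri.008G094700 (r = 0.951), and the 2 most opposed were Potri.003G120900 (r = -0.932) and Potri.010G012700 (r = -0.919). No function is given to them here, since no source used here annotates these identifiers. Potri.010G141600 measured 67.6 and 32.4 FPKM in replicates 1 and 2 at 10 µM and 2 h, and 76.9 and 31.1 FPKM at 200 µM and 2 h. Potri.010G012700 ran the other way, with 74.5 and 111 FPKM at 10 µM and 75.2 and 114 FPKM at 200 µM in these libraries. Without both replicate 1 libraries at 2 h, r was 0.917 and 0.930 for the alike pair and -0.862 and -0.867 for the opposed pair, in the order named above.

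Against this common movement, the ratios of CesA8-B to CesA4 and to CesA7-B had their highest means at 24 h. They were tested only after the values had been seen. The ratio of CesA8-B to CesA4 within a library was 0.698 and 0.648 in replicates 1 and 2 at 10 µM and 24 h, and 0.586 and 0.585 at 200 µM and 24 h. In the 16 libraries of earlier times it lay between 0.404 and 0.564, so that all 4 libraries at 24 h were above every earlier one. Ratios of other genes were not examined in this way. By time, the ratio averaged 0.474 ± 0.040, 0.429 ± 0.021, 0.464 ± 0.070, 0.507 ± 0.067 and 0.629 ± 0.054 at 2, 4, 8, 12 and 24 h (SD, n = 4). The mean log2 ratios of CesA4 to CesA7-A and to CesA8-A were also lowest at 24 h (1.49 and 1.15). That of CesA4 to CesA7-B was lowest at 2 h (0.45). A ratio does not tell which of its genes moved.

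The ratio of CesA8-B to CesA7-B showed a steadier course. Its means were 0.649 ± 0.085, 0.644 ± 0.015, 0.721 ± 0.083, 0.799 ± 0.042 and 0.883 ± 0.035 (SD, n = 4), taken in the same order of times. At 24 h the libraries held 0.920 and 0.854 at 10 µM and 0.853 and 0.905 at 200 µM, and 1 earlier library, replicate 1 at 200 µM and 12 h with 0.856, entered this range. Counting error alone would give the log2 ratios of CesA7-B to CesA8-B and of CesA4 to CesA8-B an SD of 0.10 and 0.09, and the observed SDs over 20 libraries were 0.21 and 0.24.

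All 10 ratios between members were tested for variation with time and for a difference with phosphate by two-sided permutation of libraries (100000 resamples), a choice made after the values had been seen. These permutations too treat the libraries as independent, although those of 1 group share conditions and may be technical replicates. The ratio of CesA7-B to CesA8-B passed for time, with 73.5% of its variation between times and a Benjamini-Hochberg adjusted p over the 20 tests of 0.0038. Its log2 ratio at 24 h was -0.45 relative to 2 h, and so in favour of CesA8-B. The ratio of CesA4 to CesA8-B passed with 65.6% of its variation between times, a log2 ratio at 24 h of -0.41 relative to 2 h and an adjusted permutation p of 0.0231. The other 8 ratios did not pass for time, the nearest being CesA8-A to CesA8-B (adjusted permutation p = 0.0894). That ratio passed in 3 of the 20 runs that left out 1 library, all from 10 µM: replicate 2 at 2 h (adjusted permutation p = 0.0167), replicate 1 at 8 h (0.0479) and replicate 2 at 24 h (0.0482). It also passed without both replicate 1 libraries at 2 h, with a log2 ratio at 24 h of -0.40 relative to 2 h, against -0.25 with them (adjusted permutation p = 0.0281). CesA7-B to CesA8-A passed without replicate 1 at 10 µM and 8 h (adjusted permutation p = 0.0184). No ratio passed for phosphate, with adjusted permutation p of 0.856 or higher and differences of 10 minus 200 µM between -0.04 and 0.07 on the log2 scale. Ratios between other genes were not tested, so the calls for time do not set the members apart. Among single genes, 14.6% of those tested passed limma's F test for time.

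Within 1 phosphate level, with 10 libraries, neither ratio passed. The log2 ratio of CesA7-B to CesA8-B at 24 h relative to 2 h was -0.54 at 10 µM (adjusted permutation p = 0.32) and -0.37 at 200 µM (0.225), and that of CesA4 to CesA8-B was -0.56 at 10 µM (0.32) and -0.26 at 200 µM (0.225). The sign was the same at both levels. The call for CesA7-B to CesA8-B held when any 1 library was left out (adjusted permutation p up to 0.0234). That for CesA4 to CesA8-B was lost without either replicate at 10 µM and 24 h (0.134 without replicate 1, 0.0627 without replicate 2), and also without a 4 h library, replicate 1 of the 10 µM group (0.0532) or replicate 2 of the 200 µM group (0.0515).

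**Figure D5:**
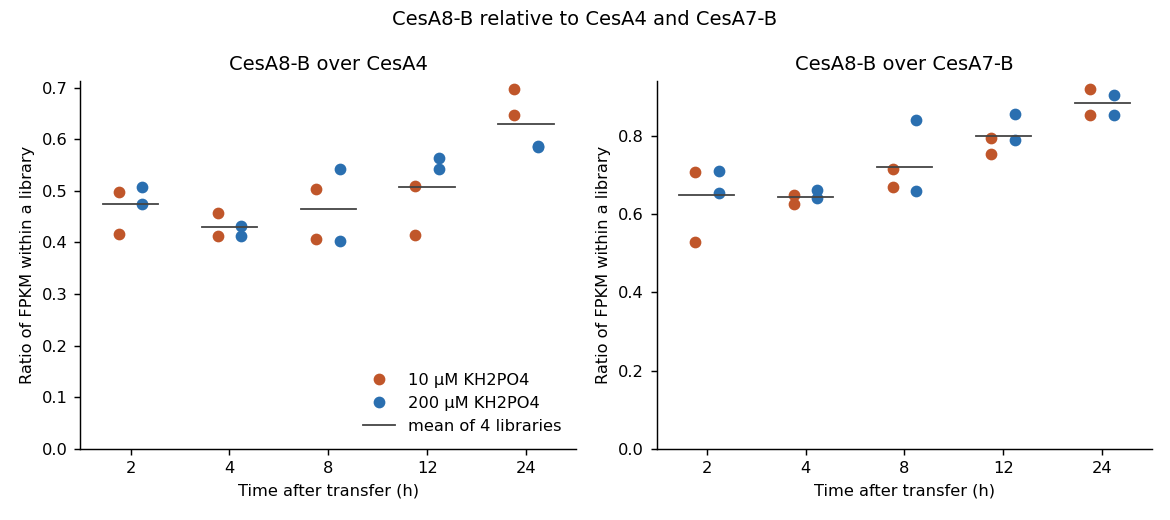
Ratio of CesA8-B to CesA4 (left) and to CesA7-B (right) within each library (vertical axes, FPKM over FPKM) by hours after transfer (horizontal axes), with 10 µM KH2PO4 in orange, 200 µM in blue and a bar for the mean of 4 libraries. The means at 24 h, 0.629 and 0.883, are the highest of the 5 times.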

How the data were processed

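RNA sequencing of 20 libraries was analysed from 1 table of FPKM values that the authors deposited for 34699 genes, without further scaling between libraries. HISAT2 2.1.0 and Bowtie2 2.2.3 are named in the submitters' processing notes without their roles; genome, annotation and the program behind the FPKM values: not given in the sources used here. The table held 0 columns that were left out.

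Library totals, gene lengths and whole fragments were worked out from the steps of the FPKM values, by a search over lengths of 60 to 20000 bases, and every tested gene gave whole fragments to within 0.06 (100%). Counting intervals and the voom alternative rest on these fragments. A gene was tested if 2 or more libraries held it at 1 FPKM or above. limma 3.58.1 in R 4.3.3 was fitted to log2(FPKM + 1) of all 20 libraries with 1 mean per phosphate level and time and a mean trend of the variance (median 14.1 total degrees of freedom), and p-values were adjusted by Benjamini and Hochberg over all genes within each comparison. A fold on this scale understates changes of low genes. Ratios, correlations and permutation tests used scipy 1.17.1 and numpy 2.4.6 in Python 3.11.15. Confidence intervals are 95%. The fit and the recovery of fragments were tested on simulated data.

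The members were given by identifier. The 2 genes most and the 2 least like their mean profile were named by rule. Members, tests and rules were chosen with earlier results of these data known. Lists of other cell wall genes and of cell type markers were to be matched to annotation, so none was used. Alternatives were another pseudocount, no filter, quantile normalization, no variance trend, voom, replicate blocks, and leaving out libraries.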

Additional observations from a re-analysis of the deposited data

Results flagged for a closer look

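Among the 4 libraries of each time, 2 of 25 sets of gene and time held a library far from the other 3, and chance flags about 1 set in 20. CesA4 stood at 17.2 FPKM in replicate 1 at 10 µM and 12 h, with the other libraries of that time at 10.2 to 11.1 FPKM. CesA8-B stood at 10.5 FPKM in replicate 1 at 200 µM and 24 h, with the others at 7.59 to 7.92 FPKM. CesA4 was also flagged for the direction of its phosphate difference: both 10 µM libraries lay above both 200 µM libraries at 12 h (log2 difference 0.36) and below them at 24 h (-0.43). The change of sign was not particular to CesA4, since all 5 genes had a difference above 0 at 12 h and below 0 at 24 h. Groups of 2 were apart in 37.9% of all genes tested at 12 h and in 43.5% at 24 h. limma's F test of the difference over all 5 times gave CesA4 an unadjusted p of 0.648 and a Benjamini-Hochberg adjusted p of 1.00, and the difference between 12 h and 24 h alone was not tested.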

How the results depend on the processing

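No member passed the threshold in any comparison run under 28 other settings of the limma fit, with a smallest adjusted p of 0.0784 (CesA7-B over time, without replicate 2 at 200 µM and 2 h). Comparisons between times were not run with the block within times, nor those that need 8 h without its libraries. An alternative chosen after the data were seen left out both replicate 1 libraries at 2 h, and so kept only 1 library per group at that time. In it, the 24 minus 2 h difference of CesA8-B was 0.70 (log2), against a median of 0.05 over all genes. That of the other 4 turned positive (CesA4 0.30, CesA7-A 0.40, CesA7-B 0.21, CesA8-A 0.35), and the phosphate difference of CesA8-B became -0.018. Without the 4 libraries at 8 h, the mean phosphate difference turned to -0.012 for CesA4 and -0.041 for CesA8-B. Leaving out 1 library at a time moved that difference between -0.080 and 0.16 (CesA4), -0.10 and 0.16 (CesA7-A), -0.037 and 0.17 (CesA7-B), -0.051 and 0.14 (CesA8-A), and -0.13 and 0.14 (CesA8-B). It moved the 24 minus 2 h difference between -0.57 and 0.022 (CesA4), -0.49 and 0.15 (CesA7-A), -0.36 and 0.12 (CesA8-A), and -0.24 and 0.42 (CesA8-B), and the 12 minus 4 h difference of CesA8-B between -0.37 and 0.024. These signs thus rest on single libraries.

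The log2 ratio of CesA4 to CesA8-B at 24 h relative to 2 h ran from -0.44 to -0.35 when 1 library was left out, and that of CesA7-B to CesA8-B from -0.50 to -0.36. Within 10 µM the 2 ratios were -0.56 and -0.54, and within 200 µM -0.26 and -0.37, all without passing. The mean log2 ratio of A over B ran from -0.98 to -0.95 for CesA7 and from -0.23 to -0.20 for CesA8.

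The replicate block left 0 members past the threshold, as an additive term in all comparisons and within times in the phosphate comparisons, with the mean phosphate difference of CesA4 again 0.04. The numbers were not taken to pair the samples, since not every time had a correlation over 0.1: deviations of same-numbered libraries at 10 and 200 µM correlated with r = 0.504, 0.075, -0.238, 0.074 and -0.010 at 2, 4, 8, 12 and 24 h. With voom on recovered fragments 0 members passed, and 0 had an unadjusted p under 0.05 in any comparison. Of the 50 ratios between replicates, 15 had a counting interval that held 1, and other genes were not counted in this way. Counting error alone would give the log2 ratio of the CesA7 copies an SD of 0.12, against 0.17 observed. For this ratio, counting error was thus smaller than the observed spread but not negligible beside it. The source of the rest was not tested.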
